A study of Homo sapiens with 4 samples.

Results

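The ubiquitin-specific proteases (USPs) are the largest family of human deubiquitinases, cysteine proteases that cut ubiquitin from proteins and so reverse a mark for degradation, trafficking or signalling. DHX36 is a DEAH-box helicase that unwinds G-quadruplexes, folds in which runs of guanines stack on each other. It was mapped on RNA by PAR-CLIP, in which cells incorporate a photoreactive uridine analogue, proteins are crosslinked to RNA by ultraviolet light and the crosslinked position is read as a T-to-C change. The members described here were chosen by symbol alone, as every gene listed as USP followed by a number and at most 1 letter. There were 51 of them among 26490 listed genes, each on 1 line of the table. The rule itself uses no measured value, but the family was picked for description with earlier results of these data known.

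The study compared the RNA bound by active DHX36 with that bound by a helicase-dead mutant. Both proteins were made in HEK293 cells, a human embryonic kidney line, from tetracycline-inducible transgenes carrying a FLAG and HA tag, so each line also held its own endogenous DHX36. In both lines the transgene was induced with 500 ng per ml tetracycline for 15 h and the cells were exposed to 365 nm light for 5 min, with 2 replicates per line. FH-DHX36 denotes the active protein, labelled as isoform 2 (iso2), and FH-DHX36-E335A the helicase-dead one, called the mutant below, labelled as isoform 1 (iso1), so the mutation and the isoform cannot be told apart. The table gives 1 value per gene and line over the replicates together. No difference below therefore has a replicate check, and none carries a p-value; the intervals given are 95% intervals for counting error only, and sequenced reads are not independent molecules. Untransfected or mock-precipitated cells were not analysed here, so no background level stands beside these values. Whether the cells carried the markers of HEK293 could not be checked, since the table holds RNA abundance only indirectly and only for bound genes.

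A cluster is a stretch of overlapping reads with T-to-C changes that passed the authors' caller, and a gene with at least 1 cluster is called bound here. A crosslinked read is a read within a cluster. Clusters and reads were assigned by the authors to the 5′ UTR, the coding sequence (CDS), the 3′ UTR or introns, and what the gene total holds beyond these is called other annotation; 5′ UTR, CDS and 3′ UTR together are called exonic. NXPM is the gene's crosslinked reads, scaled to a fixed library total, divided by the abundance of its mRNA, so it relates binding to how much of the RNA is there. Crosslinked reads summed to 8752127 for FH-DHX36-E335A and to 2160413 for FH-DHX36, a 4.05-fold difference. This total, called depth below, holds reads within clusters only. No count of bound genes was adjusted for it, so such counts are not alike between the PAR-CLIPs.

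FH-DHX36-E335A bound 37 of the 51 USP mRNAs (72.5%, Wilson interval 59.0 to 82.9), where 34.5% of all listed genes and 48.1% of coding genes were bound. FH-DHX36 bound 24 (47.1%, 34.1 to 60.5), where 22.4% of all listed genes and 31.3% of coding genes were bound. All 24 were also bound by FH-DHX36-E335A, 13 were bound by FH-DHX36-E335A alone, none by FH-DHX36 alone, and 14 had no cluster. Of the mRNAs bound by FH-DHX36-E335A, 64.9% of the USPs and 62.1% of all genes were bound by FH-DHX36 as well, and of all genes bound by FH-DHX36, 95.6% were bound by the mutant. The 31 other deubiquitinases listed, from the ubiquitin C-terminal hydrolase, ovarian tumour, Josephin, JAMM and further families, held 24 mRNAs bound by FH-DHX36-E335A (77.4%, 60.2 to 88.6) and 16 bound by FH-DHX36, and the intervals of the families overlap. Bound USP transcripts were long, with medians of 5189 nt for the mutant and 5031 nt for FH-DHX36, against 3600 and 3629 nt for bound coding genes. Clusters of any annotation, introns included, divided by this transcript length gave medians of 1.02 and 0.248 per kb. These were lower than the 1.38 and 0.544 of bound coding genes.

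An exonic cluster was present on 35 USP mRNAs with FH-DHX36-E335A, where 32.2% of all listed genes and 45.1% of coding genes had one, and on 17 with FH-DHX36, where 19% and 26.5% had one. At least 2 clusters were present on 36 USP mRNAs with the mutant and 9 with FH-DHX36, where 28.6% and 12.7% of all listed genes, 40% and 17.7% of coding genes and 82.9% and 56.7% of bound genes had as many. For FH-DHX36 this is 17.6% of the USPs, so the higher share of USPs than of coding genes seen at 1 cluster was not there at 2. At least 2 exonic clusters were present on 32 and 8 USP mRNAs, where 25.9% and 10.1% of all listed genes, 36.26% and 14.06% of coding genes and 75% and 45% of bound genes had as many. At least 10 clusters were present on 12 and 1, where 7.59% and 0.804% of all listed genes and 22% and 3.59% of bound genes had as many. The 2 mRNAs bound by FH-DHX36-E335A without an exonic cluster were those of USP43 and USP44, whose clusters were intronic. The 7 bound by FH-DHX36 without one were those of USP4, USP16, USP34, USP42, USP43, USP44 and USP48.

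The USP mRNAs together took 26026 FH-DHX36-E335A reads in 302 clusters, 0.297% of all crosslinked reads (0.294 to 0.301), and 5720 FH-DHX36 reads in 56 clusters, 0.265% (0.258 to 0.272). They were 0.405% of the bound genes in each PAR-CLIP, so their share of reads was below their share of bound genes. Of all clusters they held 0.5016% with the mutant and 0.3345% with FH-DHX36. A bound USP mRNA held a median of 310 FH-DHX36-E335A reads (26 to 6536), against 326 over all bound genes, and of 67.5 FH-DHX36 reads (19 to 1297), against 121. A few genes carried much of the signal. USP1 alone gave 25.1% of the FH-DHX36-E335A reads on the family, and the 5 highest genes gave 48.1%. With FH-DHX36 the 5 highest genes gave 77.1%, and they were USP39, USP22, USP11, USP24 and USP1.

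**Figure D1:**
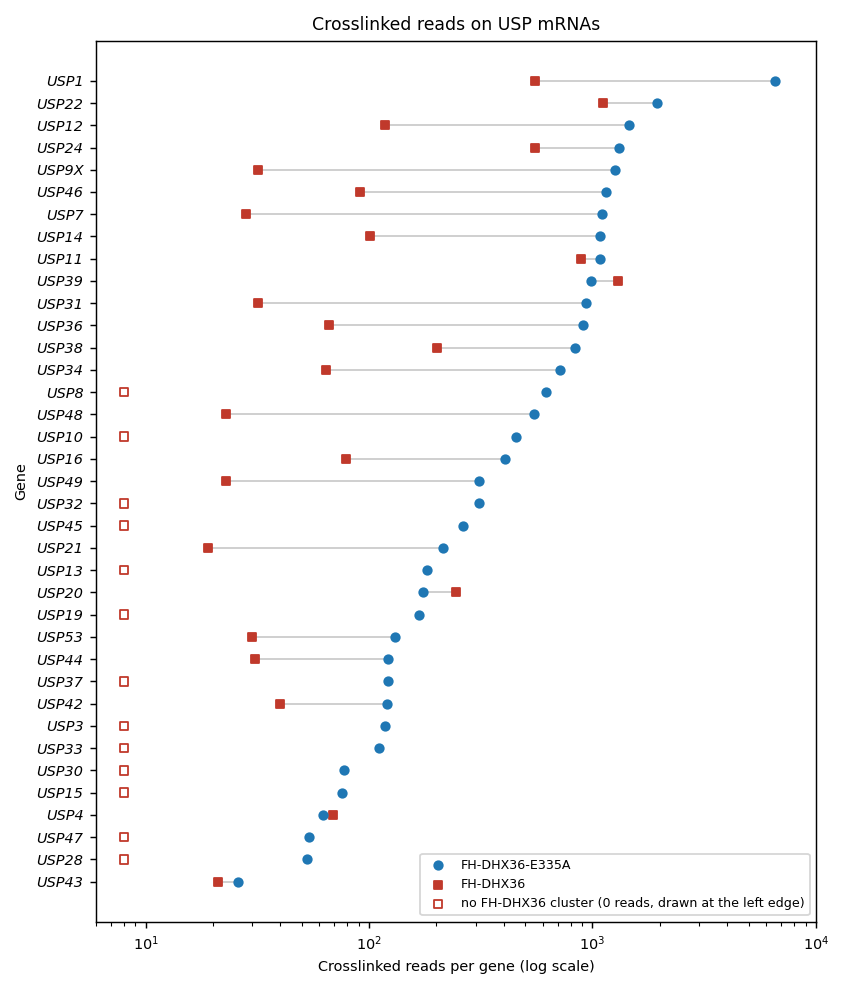
Crosslinked reads (log scale) on each of the 37 bound USP mRNAs, with FH-DHX36-E335A as blue circles and FH-DHX36 as red squares. Open squares at the left edge are the 13 mRNAs with no FH-DHX36 cluster; only USP39, USP20 and USP4 have the red square to the right of the blue circle.

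Because DHX36 acts on folds built from guanine runs, examples of sequences with such runs are shown first, from regions that were among the 3 USP regions of their kind with most reads in at least 1 PAR-CLIP. They are not a full set, and other regions of that rank also hold matches. The CDSs of that rank, those of USP1, USP9X, USP11, USP24 and USP38, held 1, 3, 6, 11 and 4. The medians over coding CDSs within 10% of their lengths were 5, 13, 6, 13.5 and 6, so none of these CDSs held more than its median. The search took at least 4 runs of GG or longer separated by 1 to 7 nucleotides of any kind, on the sense strand of the canonical transcript of each gene, so a longer guanine run can serve as 2 of the runs with a G between them. Matches of at most 30 nucleotides within 1 exon are printed 5′ to 3′, with runs of 2 or more guanines in capitals and GRCh37 positions, and they were picked for display after the matches and the reads had been seen. The table gives no position of a cluster within a region, so no match is tied to a crosslinked site, and a match is a description of letters, not a fold. The 421-nt 5′ UTR of USP1, in exon 1, held 4 matches, of which the first 3 are short enough to print:
USP1 5′ UTR, chr1:62902768-62902791, plus strand: GGttcaGGcgttcGGcgagcGGGG
USP1 5′ UTR, chr1:62902812-62902838, plus strand: GGctctcccGGGGcGGGcgcagatGGG
USP1 5′ UTR, chr1:62902876-62902896, plus strand: GGGagcgagcGGcGGtcGGGG
USP12 5′ UTR, chr13:27745837-27745863, minus strand, exon 1: GGGctgcGGtgcgagcGGGcGGcccGG
USP12 3′ UTR, chr13:27641488-27641513, minus strand, exon 9: GGGGaaagtcaGGGcagtGGaagtGG
USP46 3′ UTR, chr4:53462708-53462729, minus strand, exon 9: GGGtatagaGGtGGctcaaaGG
USP22 3′ UTR, chr17:20904670-20904688, minus strand, exon 13: GGctGGGctGGGGaGGGGG
USP11 CDS, chrX:47098772-47098794, plus strand, exon 3: GGaGGGactGGtGGaaGGcgaGG
USP39 3′ UTR, chr2:85876011-85876033, plus strand, exon 13: GGctGGctGGtGGGcttcctaGG
USP20 3′ UTR, chr9:132643758-132643785, plus strand, exon 26: GGGGcgtGGGtGGGGaaGGGGctctGGG

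Such matches are common in all genes. At least 1 match lay in the 5′ UTR of 40 USP mRNAs, against 53.8% of all coding 5′ UTRs, in the CDS of 46, against 84.4%, and in the 3′ UTR of 34, against 64.7%. Per kb the USPs held 5.45 matches in 5′ UTRs against 5.26 over all coding genes, 1.46 in CDSs against 2.53, and 1.36 in 3′ UTRs against 1.71. Matches with runs of at least 3 guanines lay in the 5′ UTR of 4 USPs, the CDS of 3 and the 3′ UTR of 6, against 6.84%, 6.19% and 14.1% of all such regions. Among the sequences printed above, that of USP20 is of that kind.

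The function groups that follow are small. They were chosen with earlier results of these data known and need not hold every USP of that function. A share therefore covers the listed genes only. Their counts stand against 72.5% and 47.1% of the whole family bound by the mutant and by FH-DHX36. Of coding genes 48.1% and 31.3% were bound, and of all listed genes 34.5% and 22.4%. USP1, USP12 and USP46 share an activating partner, the WD-repeat protein UAF1, encoded by WDR48. All 3 were bound in both PAR-CLIPs, and together they held 9140 reads with the mutant and 762 with FH-DHX36. They were among the 5 highest USPs by NXPM with FH-DHX36-E335A. USP1 (chr1:62902720-62917475) deubiquitinates FANCD2 and PCNA in the repair of DNA crosslinks and in damage bypass. It had 26 clusters and 6536 reads with FH-DHX36-E335A, the most of the family, and 7 clusters and 553 reads with FH-DHX36. Its NXPM was 53.7 and 18.4. The place of its reads differed between the PAR-CLIPs: with FH-DHX36-E335A 56.6% (55.4 to 57.8) lay in the CDS and 23.3% (22.3 to 24.4) in the 5′ UTR, whereas with FH-DHX36 17.9% (14.9 to 21.3) lay in the CDS and 70.7% (66.8 to 74.3) in the 5′ UTR. The 5′ UTR that carries the 3 printed matches thus held 1524 and 391 reads. A 3G match lay within the same 5′ UTR, as in 16.5% of the coding 5′ UTRs within 10% of its length, while its 3′ UTR, with 891 and 63 reads, held no match.

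USP12 and USP46 are close paralogues, and reads from stretches in which they are alike could be placed on either. USP12 had 13 clusters and 1456 reads with FH-DHX36-E335A, of which 1201 lay in the 3′ UTR (82.5%, 80.5 to 84.4) and none in the 5′ UTR. With FH-DHX36 it had 3 clusters and 118 reads, of which 77 lay in the 5′ UTR (65.3%, 56.3 to 73.2) and 41 in the 3′ UTR. Its NXPM was 72.6 and 23.8. USP46 had 23 clusters and 1148 reads with FH-DHX36-E335A, 87.5% of them (85.4 to 89.2) in the 3′ UTR, and a single 3′ UTR cluster of 91 reads with FH-DHX36. Its NXPM of 76.1 was the highest of the family with FH-DHX36-E335A and was 24.5 with FH-DHX36. Its 6680-nt 3′ UTR held 9 matches, where the median 3′ UTR of like length held 8. The mRNA of UAF1 itself had 4 clusters and 140 reads with the mutant and none with FH-DHX36.

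Of 7 USPs listed here as acting on p53, MDM2 or DNA repair factors, 7 (100%) were bound by FH-DHX36-E335A and 5 (71.4%) by FH-DHX36. The shares were 34.5% and 22.4% of all listed genes and 72.5% and 47.1% of the family. USP7, which deubiquitinates MDM2 and p53, had 11 clusters and 1102 reads with the mutant, 886 of them in the 3′ UTR (80.4%, 77.9 to 82.6). With FH-DHX36 it had 1 cluster of 28 reads, also in the 3′ UTR, and its NXPM was 17.3 and 1.78. USP11, linked to homologous recombination and a paralogue of USP4 and USP15, showed nearly equal raw reads in the 2 PAR-CLIPs, 1076 and 884. Its reads lay mainly in the CDS, at 71.6% (68.8 to 74.2) and 76.1% (73.2 to 78.8), with most of the rest in a short 3′ UTR of 398 nt. NXPM of USP11 was 8.98 with the mutant and 29.9 with FH-DHX36. USP10, which deubiquitinates p53 and binds the stress granule protein G3BP1, had 5 clusters and 454 reads with the mutant and none with FH-DHX36. USP4 had 62 and 69 reads, the latter in other annotation. USP42 had 120 reads and, in an intron, 40 reads, and USP28, a stabiliser of MYC, had 53 CDS reads with FH-DHX36-E335A alone.

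Of 8 USPs listed here as acting on histone H2A or H2B, 6 (75%) were bound by FH-DHX36-E335A and 5 (62.5%) by FH-DHX36. Of all listed genes 34.5% and 22.4% were bound, and the mutant share was near the family's 72.5%. USP22 (chr17:20902909-20946324), the H2B deubiquitinase of the SAGA coactivator, had the most clusters of the family with FH-DHX36. It held 20 clusters and 1952 reads with the mutant and 11 clusters and 1118 reads with FH-DHX36. The 3′ UTR took 87.0% (85.5 to 88.5) and 94.99% (93.5 to 96.1) of these reads, at 4.08 and 2.62 clusters per kb. That 3′ UTR, 3435 nt long, held 8 matches, 1 of them printed above, where the median 3′ UTR of like length held 4. NXPM was 11.7 and 27.1. USP49 had 310 and 23 reads and USP44, a mitotic checkpoint enzyme, 122 and 31. USP16, an H2A deubiquitinase, had 406 reads with FH-DHX36-E335A, 200 of them intronic, and 79 with FH-DHX36, all intronic. USP21 had 215 and 19 reads, with 116 and 19 in the 5′ UTR, and USP3 had 118 reads with FH-DHX36-E335A alone. USP27X and USP51, paralogues of USP22, had no cluster.

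USP39 and USP36 act on RNA pathways, and both were bound in both PAR-CLIPs. USP39 (chr2:85843309-85876406), a spliceosomal protein that lacks catalytic residues, was the highest USP with FH-DHX36 by reads. It had 8 clusters and 988 reads with the mutant and 4 clusters and 1297 reads with FH-DHX36, despite the lower depth of the latter. A single 5′ UTR cluster held 407 reads (41.2%, 38.2 to 44.3) with the mutant and 1008 reads (77.7%, 75.4 to 79.9) with FH-DHX36. The canonical transcript used here gives USP39 a 5′ UTR of only 10 nt, whereas the authors assigned clusters with an earlier annotation not used here, so the G-run search does not cover the stretch they counted. Its 3′ UTR, which carries the printed match, held 138 and 270 reads, and its NXPM was 4.54 and 24.1. USP36, a nucleolar deubiquitinase, had 14 clusters and 904 reads with FH-DHX36-E335A, 78.8% (76.0 to 81.3) of them in the 3′ UTR, and 66 reads with FH-DHX36. Of the 4 USPs long annotated as inactive, USP39 and USP53 were bound in both and USP50 and USP54 in neither. USP53 held 130 and 30 reads, the latter all in its 5′ UTR.

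Of 4 USPs listed here for TGF-β or Wnt signalling, 4 (100%) were bound by FH-DHX36-E335A and 2 (50%) by FH-DHX36. The shares were 34.5% and 22.4% of all listed genes and 72.5% and 47.1% of the family. This list is not a full set of USPs tied to these pathways. USP9X, a large X-linked enzyme that deubiquitinates SMAD4 and MCL1, had 16 clusters and 1262 reads with FH-DHX36-E335A. The CDS held 63.5% (60.8 to 66.1) and the 5′ UTR 182 reads, but FH-DHX36 gave only 1 CDS cluster of 32 reads. NXPM was 19.3 and 1.98. USP34, which acts on axin, had 714 reads with FH-DHX36-E335A, 75.4% (72.1 to 78.4) in its CDS of 10641 nt, and 64 reads with FH-DHX36, all intronic. Its NXPM was 30.4 and 11.1. USP15 and USP47 had 76 and 54 reads with the mutant and none with FH-DHX36.

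The membrane and endosome group held 6 genes, 5 (83.3%) bound by FH-DHX36-E335A and 1, USP20, by FH-DHX36 (16.7%), where 34.5% and 22.4% of all listed genes and 48.1% and 31.3% of coding genes were bound. USP8, which spares receptors from lysosomal sorting, was the mRNA with most mutant reads and no FH-DHX36 cluster. It had 7 clusters and 620 reads with FH-DHX36-E335A and an NXPM of 27.8, and at an equal share the FH-DHX36 library would have held 153 reads. Its annotated 3′ UTR of 15333 nt overlaps USP50 on the other strand, and whether counting used the strand is not given in the sources used here. USP20, a deubiquitinase of the β2-adrenergic receptor, ran the other way, with 174 reads in 2 clusters for FH-DHX36-E335A and 245 reads in 1 cluster for FH-DHX36, all in the 3′ UTR. Its NXPM of 7.005 and 39.96 put it 2nd in the family with FH-DHX36. USP19 had 167 reads, USP33, a paralogue of USP20, had 111 and USP30, an enzyme of the outer mitochondrial membrane, had 77, all with FH-DHX36-E335A alone. Among the proteasome and ubiquitin-recycling enzymes, the proteasome-bound USP14 had 1080 and 101 reads, of which 889 (82.3%, 79.9 to 84.5) and 67 lay in the 3′ UTR. USP13 had 181 reads with FH-DHX36-E335A alone, all in the 3′ UTR, and its paralogue USP5 had no cluster.

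Of the remaining bound members, USP24 had the highest NXPM with FH-DHX36. It had 12 clusters and 1317 reads with the mutant and 5 clusters and 555 reads with FH-DHX36, and its NXPM was 71.8 and 122.5. It was the one USP above an NXPM of 100 in either PAR-CLIP, where 1.79% and 1.52% of all listed genes lay above it. Its reads lay mainly in the CDS (47.2% and 37.7%) and other annotation (41.1% and 47.9%). Introns held 5.24% and 14.4% of them, and the 3′ UTR 6.45% and 0%. USP38 had 834 and 201 reads and almost the same NXPM in both, 29.9 and 29.2. USP31 had 938 reads with FH-DHX36-E335A, 90.3% (88.2 to 92.0) in the 3′ UTR, and 32 with FH-DHX36, and its NXPM was 74.1 and 10.2. USP32 had 309 reads and an NXPM of 20.2 with the mutant, and FH-DHX36 left no cluster on it. USP6 derives in part from USP32 and had no cluster, and how reads that match both were placed is not given in the sources used here. Likewise for USP9X and its Y-linked homologue USP9Y, of which the latter had no cluster, the handling of shared reads is not stated. USP48 had 549 and 23 reads and USP43 26 and 21, and USP45 and USP37 had 264 and 121 with FH-DHX36-E335A alone.

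The 14 USPs without a cluster were USP2, USP5, USP6, USP9Y, USP18, USP25, USP26, USP27X, USP29, USP35, USP40, USP50, USP51 and USP54. USP18 removes the ubiquitin-like protein ISG15 and is induced by interferon. The RNA abundance of these genes cannot be recovered from the table, so an mRNA that was absent and one that was present but unbound cannot be told apart. Their canonical transcripts had a median length of 4684 nt, against 5189 nt for the USPs bound by FH-DHX36-E335A and 3600 nt for all bound coding genes.

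**Figure D2:**
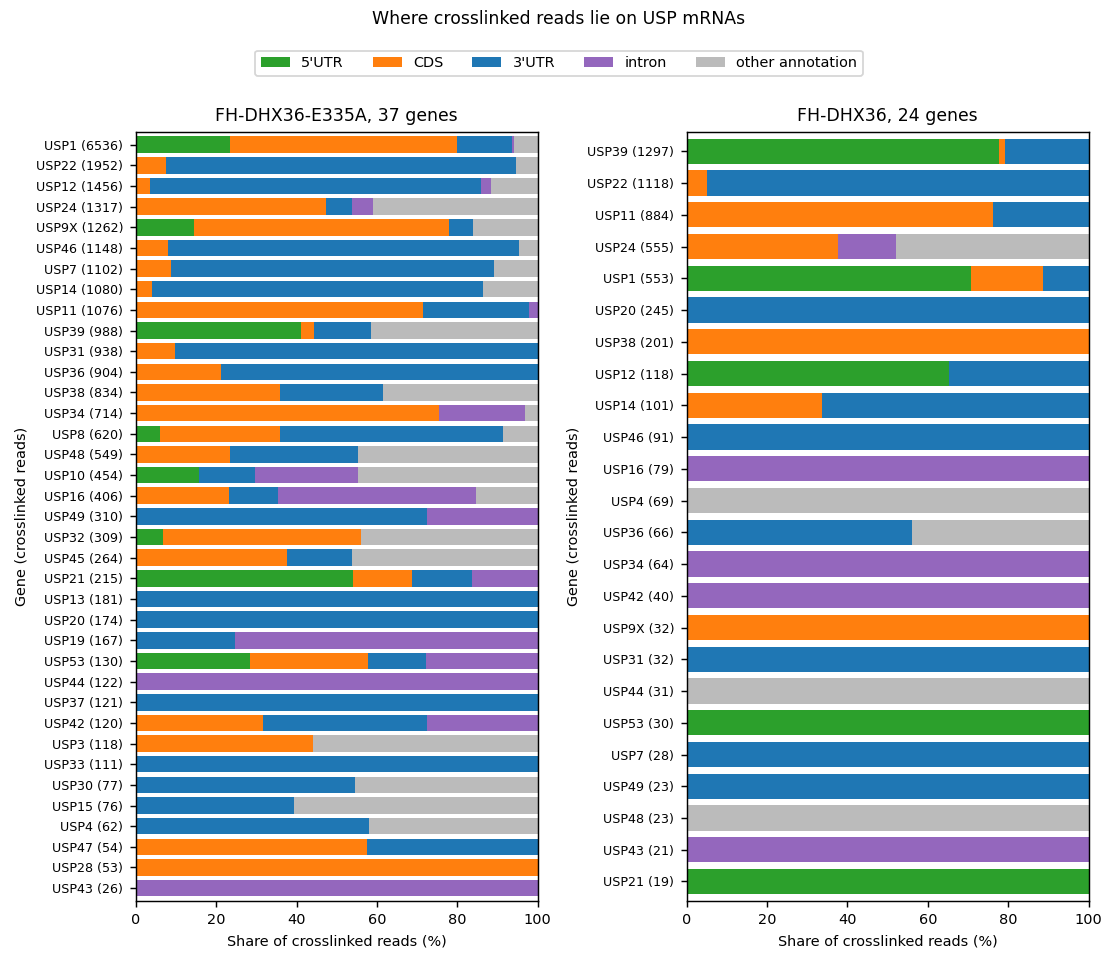
Share of each bound USP mRNA's crosslinked reads (%) in the 5′ UTR, CDS, 3′ UTR, introns and other annotation, with 37 genes for FH-DHX36-E335A on the left and 24 for FH-DHX36 on the right, ordered by reads, which stand in parentheses. The 3′ UTR colour holds most of the bar for 15 genes on the left and 8 on the right, and the 5′ UTR colour for 1 and 5. These are 40.5% and 33.3% of the bound USPs for the 3′ UTR, against 49.4% and 35.9% of all bound genes. For the 5′ UTR they are 2.70% and 20.8%, against 3.42% and 8.85%.

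By region, the exonic clusters of the USPs lay mainly in 3′ UTRs and CDSs. With FH-DHX36-E335A 250 exonic clusters fell at 5.6% (Wilson interval 3.37 to 9.18) in 5′ UTRs, 40.4% (34.5 to 46.6) in CDSs and 54% (47.8 to 60.1) in 3′ UTRs. Spread evenly over the length of these mRNAs they would have fallen at 3.67%, 48.4% and 47.9%. Over all genes the observed shares were 5.05%, 35.6% and 59.3%, and the observed share over that set by length was 1.53 in 5′ UTRs, 0.835 in CDSs and 1.13 in 3′ UTRs for the USPs, against 1.05, 0.838 and 1.13 for all genes. With FH-DHX36 46 exonic clusters fell at 17.4% (9.09 to 30.7) in 5′ UTRs, 34.8% (22.7 to 49.2) in CDSs and 47.8% (34.1 to 61.9) in 3′ UTRs, against 10.2%, 38.3% and 51.6% over all genes. The 5′ UTR share was 3.30 times that set by length for the USPs and 2.14 times for all genes, and the interval of the USP share holds the value for all genes. The 8 clusters behind it came from 5 mRNAs, 3 of them from USP1, 2 from USP12 and 1 each from USP21, USP39 and USP53.

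**Figure D3:**
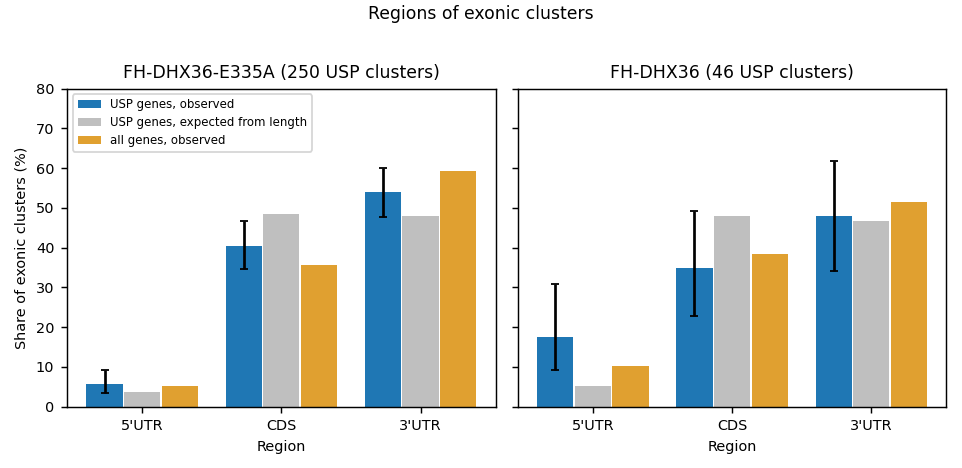
Share of exonic clusters (%) in the 5′ UTR, CDS and 3′ UTR for the USPs (blue, with 95% Wilson intervals for counting error), as set by region length in the same USP mRNAs (grey), and for all genes (orange). The blue and orange bars differ most in the 5′ UTR with FH-DHX36, 17.4% against 10.2%, where the interval of the USPs is wide.

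Counted by reads, the 5′ UTR share was larger and rested on single genes. Of exonic USP reads 11.2% lay in 5′ UTRs for the mutant and 30.4% with FH-DHX36, against 5.18% and 10.2% over all genes. Without USP1 the first was 5.68%, and without USP39 the second was 13.9%. The mutant's exonic USP reads lay at 39.0% in CDSs and 49.8% in 3′ UTRs, against 22.7% and 72.1% over all genes, and without USP1 at 30.5% and 63.8%. With FH-DHX36 they lay at 26.4% and 43.2%, against 38.1% and 51.7%, and without USP39 at 35.0% and 51.1%. Of 24 mRNAs bound in both PAR-CLIPs, 12 had most of their reads in the same region in both (50%, against 53.5% of all such genes). A further 5 had most in different regions (20.8%, against 29.7% of all such genes), namely USP1, USP4, USP12, USP34 and USP44.

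To compare the PAR-CLIPs at unequal depth, each gene's reads were taken as a share of the total of its PAR-CLIP. Of the 24 USPs bound in both, 12 had a share at least 2-fold higher with FH-DHX36-E335A (50%, where 28.6% of all genes bound in both did) and 6 at least 2-fold lower (25%, where 24.8% did). The median log2 ratio was 0.87 (-2.51 to 3.28), against 0.12 over all genes. Of the 12, 6 had fewer than 50 reads with FH-DHX36. With at least 50 reads in both, 6 of 14 were at least 2-fold higher, where 21.7% of all such genes were, and 5 were at least 2-fold lower, where 26.3% were.

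Highest were USP9X and USP7, both with a log2 ratio of 3.28, or 9.74-fold and 9.72-fold. Their counting intervals ran from 2.78 to 3.84 and from 2.74 to 3.88, on 32 and 28 FH-DHX36 reads. Next came USP31 at 2.86 (2.35 to 3.41) and USP48 at 2.56 (1.958 to 3.23). Among mRNAs with at least 50 reads in both, USP36 was highest at 1.76 (1.40 to 2.14), followed by USP46 at 1.64, USP12 at 1.61, USP1 at 1.54 (1.42 to 1.67) and USP34 at 1.46. The 3 mRNAs whose protein binds UAF1 thus lay within 0.1 of each other. USPs outside that group lay close to them too, such as USP21 at 1.48, USP34 at 1.46 and USP49 at 1.73.

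At the other end, USP20 had a log2 ratio of -2.51 (-2.80 to -2.23), a share 5.70-fold higher with FH-DHX36. USP39 was at -2.41 (-2.53 to -2.29), USP4 at -2.17 (-2.69 to -1.66) and USP11 at -1.73 (-1.86 to -1.60). USP43 followed at -1.71 (-2.60 to -0.81), on 26 and 21 reads, and USP22 at -1.21 (-1.32 to -1.11). USP39, USP20 and USP4 had more reads with FH-DHX36 even before scaling, as did 607 of the 5669 genes bound in both. The ratios of USP16, USP38, USP42, USP44 and USP53 had counting intervals that include 0. None of these intervals covers the spread between cultures, which the table does not give.

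**Figure D4:**
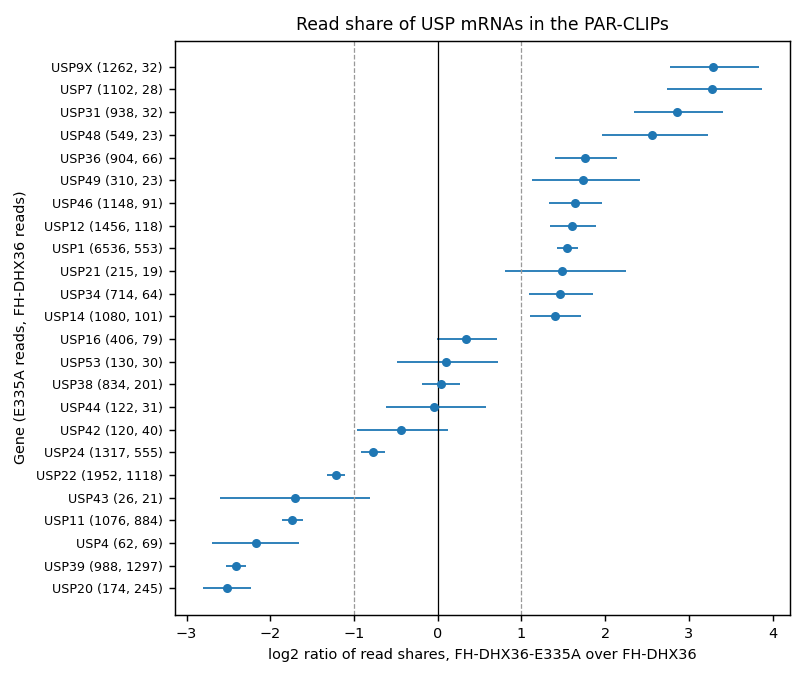
Log2 ratio of read shares, FH-DHX36-E335A over FH-DHX36, for the 24 USPs bound in both PAR-CLIPs, with 95% counting intervals and both read counts in parentheses; dashed lines mark 2-fold. The 12 mRNAs right of the upper dashed line reach 3.28 (USP9X, USP7), and the 6 left of the lower one reach -2.51 (USP20).

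By their medians, the USP mRNAs bound by the mutant alone held fewer mutant reads than those bound in both, with overlapping ranges. The 13 USPs that had a cluster with the mutant alone held a median of 121 mutant reads (53 to 620), and the 24 bound in both had 869 (26 to 6536). Among USPs with at least 700 mutant reads 0 of 14 lacked an FH-DHX36 cluster, against 6.55% of all such genes. From 300 to under 700 reads 3 of 6 lacked one, against 28.1%, and from 100 to under 300 reads 6 of 11, against 50.6%.

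On the NXPM scale the bound USPs lay near other bound genes. Their median was 7.92 (1.10 to 76.1) with FH-DHX36-E335A, against 5.66 over all bound genes, and 9.62 (0.756 to 122.5) with FH-DHX36, against 7.84. An NXPM of at least 25 was reached by 9 USPs with FH-DHX36-E335A, where 7% of all listed genes and 20.3% of bound genes reached it, and by 5 with FH-DHX36, where 5.51% and 24.6% did. The RNA abundance recovered from the table had a median of 3.18 for the bound USPs (1.10 to 24.9, in the authors' unit) and 5.89 for all genes bound by the mutant. Across the 24 USPs bound in both, Spearman's rho of NXPM between PAR-CLIPs was 0.41, against 0.79 over the 5669 genes bound in both; both axes divide by the same abundance. For raw reads rho was 0.56 and 0.63.

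**Figure D5:**
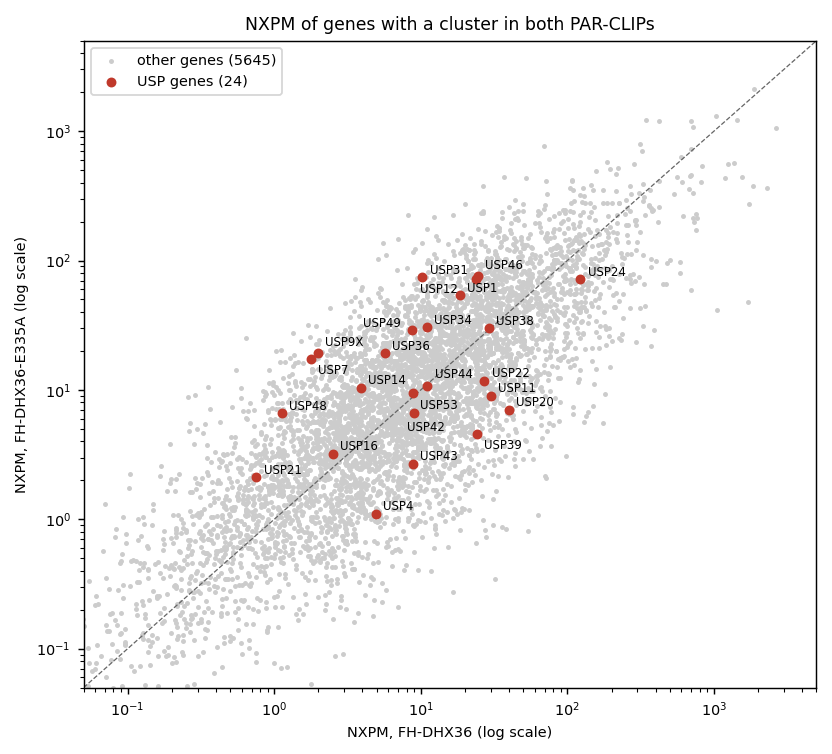
NXPM (log scales) with FH-DHX36 on the horizontal and FH-DHX36-E335A on the vertical axis for the 24 USPs (red, named) and 5645 other genes (grey) bound in both PAR-CLIPs; the dashed line marks equal values and 145 of the other genes, below 0.05 or above 5000 on an axis, are not drawn. USP24 lies farthest right at 122.5, USP31, USP9X and USP7 lie above the line and USP20, USP39 and USP11 below it.

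Guanine runs and clusters were set side by side per region. A 3′ UTR cluster was present on 31 of the 37 USPs bound by the mutant, where 78.4% of all bound genes had one, and on 12 of the 24 bound by FH-DHX36, where 52.5% did. Of the 31, 23 held a match in the 3′ UTR, and of the 6 without such a cluster 3 did. With FH-DHX36 the counts were 11 of 12 and 4 of 12. Of all coding 3′ UTRs 64.7% held a match. That share was not split by the presence of a cluster, so these small counts have no like baseline over all genes. A 5′ UTR cluster was present on 8 and 5, where 20.4% and 18.6% of all bound genes had one. For 5′ UTRs the counts with a match were 7 of 8 and 22 of 29 with FH-DHX36-E335A, and 4 of 5 and 14 of 19 with FH-DHX36, the exception in both being USP39 with its 10-nt annotated 5′ UTR. Of all coding 5′ UTRs 53.8% held a match, again not split by cluster. The rank correlation of the number of 3′ UTR clusters with the number of 3′ UTR matches was 0.50 over 37 USPs and 0.65 over 24, against 0.27 and 0.40 over all bound coding genes. The correlation of 3′ UTR clusters with 3′ UTR length was 0.42 and 0.30 in the USPs, against 0.43 and 0.24 over all bound coding genes. Whether length bears on the correlation of clusters with matches was not tested.

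Of other listed genes related to the USPs by fold or name, CYLD, a deubiquitinase which cuts linear and K63-linked chains, had 50 and 31 reads. PAN2, a USP-fold protein that deadenylates mRNA, had more reads with FH-DHX36, 87 and 138. USPL1, a SUMO isopeptidase, had 138 and 30. PAN2 and USPL1 were counted among the 31 other deubiquitinases above, so that set is not made of deubiquitinases alone.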

How the data were processed

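PAR-CLIPs with 2 replicates of FH-DHX36-E335A and FH-DHX36 were analysed from 1 table with 1 value per gene and line. The members and gene lists were chosen with earlier results of these data known. Reads were demultiplexed with bcl2fastq 2.17.1 and placed on hg19 (submitters' notes); the authors called clusters with PARalyzer through PARpipe and annotated them with GENCODE 19. The deposited crosslinked read counts and cluster numbers per gene are raw; the deposited NXPM score was made by the authors from scaled reads and RNA abundance. Abundance was recovered here as scaled reads over NXPM less 0.001. Read shares were divided by the total over all listed genes. Intervals were 95% Wilson or, for ratios, exact counting intervals. Region lengths and sequences came from canonical transcripts of GENCODE 44 on GRCh37, the same build but a later annotation, with the stop codon in the CDS. All 51 members matched. No test was run, as replicates are not separate. Values were named for the 10 highest members by reads and by NXPM in each PAR-CLIP, the 5 highest and lowest share ratios with at least 50 reads in both, and the 3 highest per region; others were named to account for every member. Scripts were tested on simulated data, where 100% of 200 planted G-run sites were recovered. Python 3.11.15, numpy 2.4.6, pandas 2.3.3, scipy 1.17.1 and matplotlib 3.10.9 were used.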

Additional observations from a re-analysis of the deposited data

How the results depend on the processing

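No paired analysis was possible because the table gives each line's replicates together; for the same reason no replicate could be left out. Of 43 alternative values, 31 stayed within the limits set and 12 moved. Counting exonic reads only, the family's share was 0.331% for the mutant FH-DHX36-E335A and 0.310% for FH-DHX36, and without the member with most reads it was 0.223% and 0.205%. Asking for at least 2 clusters left 9 USPs bound by FH-DHX36 (17.6%, against 17.7% of coding genes, where at 1 cluster it was 47.1% against 31.3%), and for at least 2 exonic clusters 8. By reads the 5′ UTR share with FH-DHX36-E335A was 11.2%. Without USP8 and USP15, whose annotated 3′ UTRs are very long, the observed-over-expected 3′ UTR share was 1.26 (chosen after seeing the data). With at least 50 reads in both, 6 USPs had a share at least 2-fold higher with FH-DHX36-E335A. Runs of 3 guanines left matches in 4 5′ UTRs, 3 CDSs and 6 3′ UTRs. With FH-DHX36, 15 of the 24 bound USPs had fewer than 100 reads. How far depth accounts for the smaller number of USPs bound by FH-DHX36 was not tested.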
